A study of Mus musculus with 10 samples.

Results

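Mitochondrial ribosomal protein genes were followed through the activation of mouse splenic B cells. They were taken as every gene on the array whose symbol begins with Mrpl or Mrps followed by a number, which gave 74 genes of the 18300 that carried a symbol. Of these, 47 encode proteins of the large subunit and 26 of the small subunit. The remaining gene, Mrps36, is now known to encode a subunit of the oxoglutarate dehydrogenase complex, not of the ribosome. The rule took genes by name alone, but the family itself was chosen with earlier results of these data known. A further 3 ribosomal proteins of mitochondria stood on the array under older symbols and were left outside the rule, namely Mrpl57, Mrpl42 and Mrpl58.

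The mitochondrial ribosome reads the few messages encoded in mitochondrial DNA, all for subunits of the respiratory chain and the ATP synthase. Its ribosomal RNAs come from mitochondrial DNA, but all of its proteins are encoded in the nucleus, made in the cytosol and imported. The small subunit decodes the message and the large subunit joins the amino acids and passes the new chain through its exit tunnel to the inner membrane. Many of the proteins have bacterial relatives, and others were added to the ribosome after the bacterial ancestor became the mitochondrion.

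B cells had been isolated with a magnetic kit from the spleens of 2-month-old female mice of the labelled genotypes Ptger4+/+ and Ptger4-/-. The product of Ptger4 is the EP4 receptor, which raises cyclic AMP when it binds the lipid signal prostaglandin E2 (PGE2). In each genotype, RNA of cells given F(ab')2 fragments against IgM (anti-IgM, which engage the B cell receptor) for 2 h was compared with RNA of cells in medium, and RNA of cells given anti-IgM with PGE2 for 24 h with RNA of cells given anti-IgM alone. The remaining comparison was between the genotypes, Ptger4-/- over Ptger4+/+, after 24 h of anti-IgM with PGE2 in both. Each of the 5 comparisons had 2 arrays with the dyes exchanged, and each array gave a ratio of 2 RNAs for every probe.

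Whether mice were pooled, or the exchanged arrays held the same RNA, is not stated in the labels, so p-values may cover technical spread alone. The values were taken as log2 ratios of Cy5 over Cy3. The labels do not give that direction. It is likely because the immediate-early gene Myc then stood 2.55 to 2.60 higher on the log2 scale with anti-IgM in the 2 genotypes. The Ptger4 probe did not lose signal in RNA labelled Ptger4-/-: its log2 ratio to Ptger4+/+ RNA with PGE2 was 0.49 ± 0.07 (limma adjusted p = 0.00207). PGE2 itself went with a lower probe signal in Ptger4+/+ cells, at -0.59 ± 0.07 (limma adjusted p = 0.000964). In cells labelled Ptger4-/- that ratio was 0.04 ± 0.07. With anti-IgM at 2 h the probe was higher in both, at 0.91 ± 0.07 in Ptger4+/+ cells and 0.56 ± 0.07 in cells labelled Ptger4-/-. Where in the gene the probe lies is not known, and one that misses the deletion could not report it, so the genotype stands here as labelled. Ratios carry no level, so the B cell identity of the RNA could not be checked by the presence or absence of markers. Of 8 measured B cell markers, 4 were lower and 1 higher with anti-IgM in each genotype. Array medians over all probes lay between 0.000895 and 0.0148. The small number of arrays limits the precision, and no intensities were used here.

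A gene was called higher or lower when its adjusted p from limma was under 0.05, over all 22533 features tested. Errors given with ± are standard errors of that fit for the mean of n = 2 arrays. They rest on the spread of each gene over all 10 arrays, not on the 2 arrays of a comparison alone. In bulk RNA, a lower share of cells that use a gene and less RNA per cell cannot be told apart.

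With PGE2 added to anti-IgM for 24 h, nearly the whole set stood lower in Ptger4+/+ B cells. Limma called 59 of the 74 genes lower, 1 higher and 14 neither way. Among all features, 17.0% were called lower and 9.11% higher. The median log2 ratio of the 74 genes was -0.38, against 0.0084 over all features. On the single arrays the median was -0.31 and -0.42. Both arrays lay below 0 for 68 genes and above 0 for 2, so the direction of the set was the same in both dye orientations. The count of genes called lower was 36 without array 1 of this comparison and 24 without array 2, while the median stayed between -0.41 and -0.34 when any array was left out.

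Mrpl17, whose protein sits near the exit of the large subunit's tunnel, had the lowest ratio. Its log2 ratio was -1.13 on array 1 and -1.03 on array 2. Both arrays were far below 0 and close to each other. The mean was -1.08 ± 0.12, a level 2.12-fold lower with PGE2 (limma adjusted p = 0.000758). Mrps17, a small subunit protein with a bacterial relative, gave -1.02 and -0.92, and Mrpl44, a large subunit protein built like a ribonuclease III, gave -1.01 and -0.85. The arrays again lay together, and neither gene came near 0 on either of them. Their means were -0.97 ± 0.05 and -0.93 ± 0.05 (limma adjusted p = 7.23e-05 and 6.67e-05).

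Mrpl46 of the central protuberance, the knob on the large subunit that faces the small subunit's head, gave -0.92 on array 1 and -0.92 on array 2 (mean -0.92 ± 0.10, limma adjusted p = 0.000668). Mrpl37, a protein without bacterial relatives on the surface of the large subunit, gave -0.999 and -0.751 (mean -0.87 ± 0.04, limma adjusted p = 6.33e-05). Mrpl16, in the core of the large subunit, gave -0.90 and -0.82 (mean -0.86 ± 0.08, limma adjusted p = 0.000401). These 6 genes with the largest falls kept their call when any of the 10 arrays was left out.

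The promoters of some of the leading genes, and of Mrps25, which went the other way, are shown as a description only. RefSeq's mouse table (build GRCm38.p6) held promoter sequences for 65 of the 74 genes, each with 250 bases before the annotated start and 50 after it. Capitals mark a match to the NRF1-type motif (GCGCA and GCGC with any base between them), which begins 49 bases before the start of Mrpl17 and 35 bases before that of Mrpl44. NRF1 is a transcription factor known for activating nuclear genes of mitochondrial function.
Mrpl17 promoter, chr7:105811038-105811337, - strand: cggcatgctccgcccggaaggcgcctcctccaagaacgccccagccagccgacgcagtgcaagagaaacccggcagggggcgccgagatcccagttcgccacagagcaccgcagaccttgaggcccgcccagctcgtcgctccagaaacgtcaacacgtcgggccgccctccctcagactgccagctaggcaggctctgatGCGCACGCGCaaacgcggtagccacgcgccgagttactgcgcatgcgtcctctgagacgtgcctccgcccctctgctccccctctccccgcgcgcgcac
Mrps17 promoter, chr5:129715247-129715546, + strand: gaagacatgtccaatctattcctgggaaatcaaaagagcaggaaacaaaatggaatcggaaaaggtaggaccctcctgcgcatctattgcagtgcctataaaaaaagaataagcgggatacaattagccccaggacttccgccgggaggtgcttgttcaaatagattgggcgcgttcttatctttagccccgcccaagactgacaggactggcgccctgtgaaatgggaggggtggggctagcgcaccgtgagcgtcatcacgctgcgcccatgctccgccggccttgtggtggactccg
Mrpl44 promoter, chr1:79775768-79776067, + strand: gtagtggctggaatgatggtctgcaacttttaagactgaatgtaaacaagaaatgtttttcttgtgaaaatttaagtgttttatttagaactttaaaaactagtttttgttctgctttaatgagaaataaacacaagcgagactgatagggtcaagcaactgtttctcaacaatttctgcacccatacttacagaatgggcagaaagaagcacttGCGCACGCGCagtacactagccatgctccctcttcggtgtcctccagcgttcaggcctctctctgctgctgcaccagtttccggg
Mrpl46 promoter, chr7:78783040-78783339, - strand: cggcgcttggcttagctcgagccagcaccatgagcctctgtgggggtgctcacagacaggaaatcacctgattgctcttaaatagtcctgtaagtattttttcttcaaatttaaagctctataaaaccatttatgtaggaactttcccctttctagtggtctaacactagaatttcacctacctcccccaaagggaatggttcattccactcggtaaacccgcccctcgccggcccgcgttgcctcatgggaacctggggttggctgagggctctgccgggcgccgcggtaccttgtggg
Mrps25 promoter, chr6:92183974-92184273, - strand: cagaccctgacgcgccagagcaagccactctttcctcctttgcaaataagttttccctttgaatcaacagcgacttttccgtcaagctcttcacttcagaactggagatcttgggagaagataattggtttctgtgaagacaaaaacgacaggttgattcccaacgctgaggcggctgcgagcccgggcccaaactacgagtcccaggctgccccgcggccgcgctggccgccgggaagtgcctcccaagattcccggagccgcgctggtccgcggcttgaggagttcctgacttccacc

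No letters of the 4 motifs searched were found in the windows of Mrps17, Mrpl46 and Mrps25. Both strands were searched, and overlapping matches to different motifs were each counted. The NRF1-type motif was present in 12 of the 65 promoters (18.5%), against 7.17% of 17491 protein-coding genes. The ETS-type motif CCGGAAGT, of the kind bound by the GA-binding protein, was present in 12 (18.5%), against 5.69%. The YY1-type motif AAGATGGCG was present in 7 (10.8%), against 2.14%, and the E-box CACGTG, which Myc binds with its partner Max, in 5 (7.69%), against 8.91%. At least 1 of the motifs was found in 31 promoters (47.7%), against 20.8% of protein-coding genes and 17.0% of all genes in the table. Promoters of genes called lower with PGE2 and of the remaining genes had such a motif at similar shares, in 25 of 52 (48.1%) and 6 of 13 (46.2%). The median GC content was 58.0% in these promoters and 56.3% in those of protein-coding genes. These matches describe the letters of the windows and show no binding.

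Mrps25, a small subunit protein without bacterial relatives, was the exception with PGE2. Its log2 ratio was 0.67 on array 1 and 0.22 on array 2, so both arrays lay above 0 but far apart. The mean was 0.44 ± 0.07 (limma adjusted p = 0.00403), and the call was lost without array 1. Mrpl45, which anchors the ribosome to the inner membrane at the tunnel exit, had a mean of 0.10 ± 0.06 (limma adjusted p = 0.245), and Mrps27, a pentatricopeptide repeat protein, 0.08 ± 0.05 (limma adjusted p = 0.268). Neither was called, and without array 2 the Mrps27 ratio was -0.0019.

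**Figure D1:**
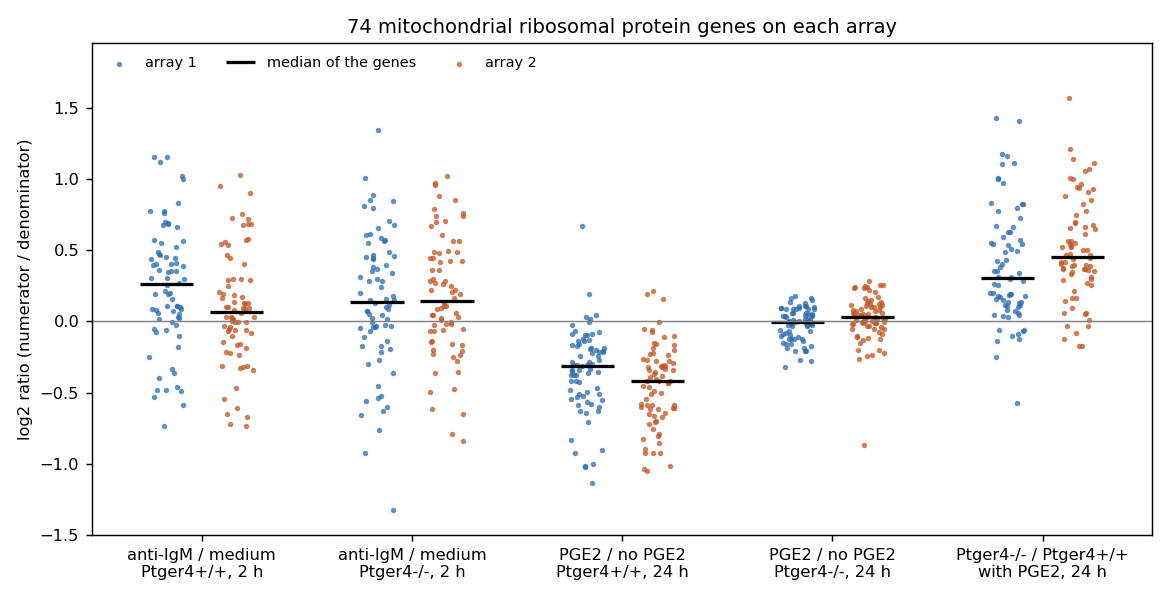
Log2 ratios (vertical axis) of the 74 mitochondrial ribosomal protein genes on each of the 10 arrays, with the 5 comparisons along the horizontal axis. Each point is a gene, blue for array 1 and orange for array 2, and black bars are medians over the genes. With PGE2 the medians were -0.31 and -0.42 in Ptger4+/+ cells and lay near 0 in cells labelled Ptger4-/-.

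The falls ran through the functional regions of the ribosome. At the peptidyl transferase region, where peptide bonds form, Mrpl27 stood at -0.62 ± 0.04 and Mrpl2 at -0.58 ± 0.08, while Mrpl3 stood at only -0.18 ± 0.05. All 3 were called lower (limma adjusted p = 0.000107, 0.00157 and 0.0407). The proteins of the stalk that recruits translation factors were lower by smaller amounts, with Mrpl11 at -0.46 ± 0.08, Mrpl10 at -0.24 ± 0.06 and Mrpl12 at -0.23 ± 0.07 (limma adjusted p = 0.00670, 0.0286 and 0.0442). Mrpl12 also binds the mitochondrial RNA polymerase. Mrpl1, of the stalk on the opposite side where spent tRNAs leave, stood at -0.26 ± 0.05 (limma adjusted p = 0.0112).

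Near the tunnel exit, Mrpl47 at -0.67 ± 0.05 and Mrpl24 at -0.35 ± 0.10 fell with Mrpl17 (limma adjusted p = 0.000179 and 0.0388), and Mrpl23 stood at -0.08 ± 0.06 without a call (limma adjusted p = 0.379). The Mrpl47 value averages unlike probes, at -0.09 and -1.24. In the central protuberance, Mrpl18 at -0.60 ± 0.11, Mrpl40 at -0.43 ± 0.06 and Mrpl38 at -0.27 ± 0.08 were called lower beside Mrpl46 (limma adjusted p = 0.00870, 0.00179 and 0.0410). Mrpl48, of the same knob, stood at -0.06 ± 0.06 and was not called (limma adjusted p = 0.467). Neighbours in the ribosome thus spanned a wide range of ratios.

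In the small subunit, Mrps12 of the decoding centre stood at -0.32 ± 0.09 and Mrps5, at the side where the message enters, at -0.33 ± 0.09 (limma adjusted p = 0.0369 and 0.0371). The Mrps5 value averages unlike probes, at -0.01 and -0.64. On the platform, Mrps6 at -0.56 ± 0.06 and Mrps11 at -0.27 ± 0.06 were lower (limma adjusted p = 0.000699 and 0.0135). In the head, Mrps14 at -0.64 ± 0.05 and Mrps9 at -0.51 ± 0.10 fell (limma adjusted p = 0.000178 and 0.00941), while Mrps7 at -0.10 ± 0.07 and Mrps10 at -0.09 ± 0.05 were not called (limma adjusted p = 0.361 and 0.234). The head was therefore split between genes that fell and genes near 0.

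By subunit, 41 of 47 large subunit genes were called lower and 0 higher, with a median of -0.40. Of the 26 small subunit genes, 18 were called lower and 1 higher, with a median of -0.36. Genes with bacterial relatives were lower in 38 of 45 cases and those without in 19 of 26, with medians of -0.39 and -0.38. The counts were high in every class, and no difference between classes was tested.

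**Figure D2:**
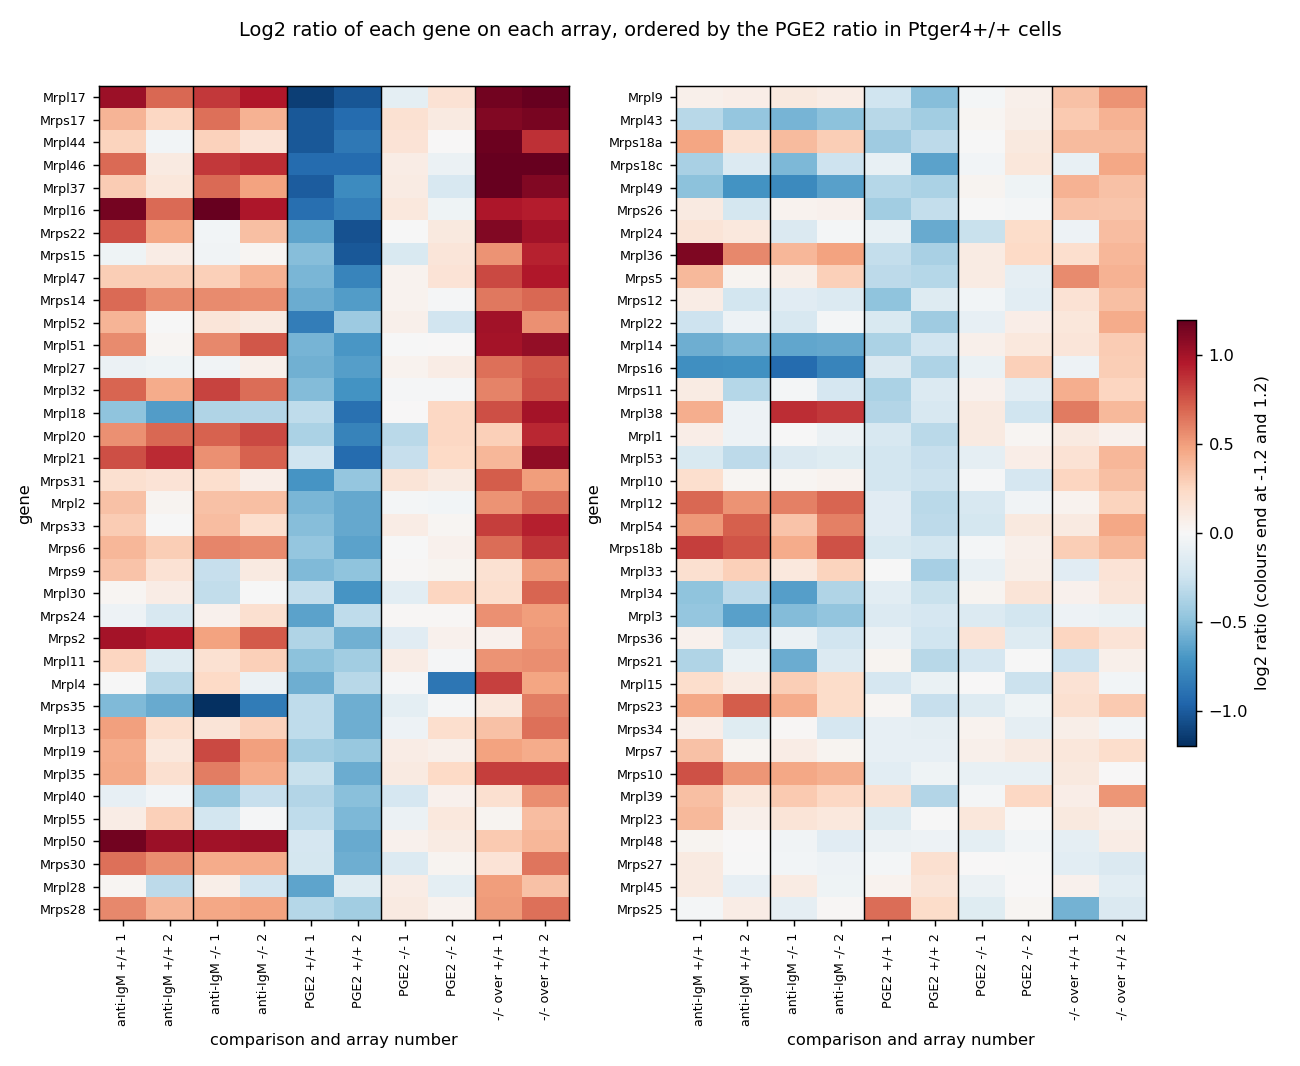
Log2 ratio of every gene (rows, in 2 panels) on each array (columns, grouped by comparison), ordered from the lowest to the highest PGE2 ratio in Ptger4+/+ cells. Red stands for ratios above 0 and blue for ratios below 0. The PGE2 columns of Ptger4+/+ cells are mostly blue from Mrpl17 down to the last rows, where Mrps27, Mrpl45 and Mrps25 stand, while those of cells labelled Ptger4-/- are pale, apart from array 2 of Mrpl4.

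In cells labelled Ptger4-/-, the same addition of PGE2 left the set near 0. Limma called 0 of the 74 genes in either direction, and 5 had an unadjusted p under 0.05, as did 1880 of all 22533 features. Over all features, 0.00888% were called higher and 0.138% lower, so calls were rare in this comparison as a whole. The median log2 ratio was 0.0031. On the 2 arrays 42 genes lay on opposite sides of 0, as did 14085 of all 22533 features. Without array 1, 1 gene was called lower, Mrpl4, at -0.71 (limma adjusted p = 0.0119).

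The largest ratios of this comparison are given as values. Mrpl4, a core protein near the exit tunnel, gave -0.01 on array 1 and -0.87 on array 2, the widest gap between arrays of the set in any comparison (mean -0.44 ± 0.10, limma adjusted p = 0.285). Mrpl3 gave -0.17 and -0.22 (mean -0.19 ± 0.05, limma adjusted p = 0.381) and Mrpl15 0.01 and -0.26 (mean -0.13 ± 0.05, limma adjusted p = 0.527). Mrpl35 gave 0.11 and 0.24, Mrpl36 0.10 and 0.24, and Mrps17 0.18 and 0.11, all above 0 on both arrays but without a call (limma adjusted p = 0.719, 0.799 and 0.525). The whole set ranged from -0.44 to 0.17, where in Ptger4+/+ cells it had ranged from -1.08 to 0.44.

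The difference between the PGE2 responses was tested as a contrast of its own. It passed for 41 of the 74 genes, with the response higher in cells labelled Ptger4-/- for 40 and lower for 1, Mrps25. Of all features, 12.7% passed in either direction. Mrps17 differed by 1.11 ± 0.07, Mrpl17 by 1.11 ± 0.17 and Mrpl44 by 1.02 ± 0.07 on the log2 scale (limma adjusted p = 0.000506, 0.00635 and 0.000521). For Mrps25 the difference was -0.51 ± 0.10 (limma adjusted p = 0.0177). The median difference over the 74 genes was 0.40. The difference of Mrpl17 was not called without array 2 of the cells labelled Ptger4-/-, and that of Mrps25 was not called without either of those arrays or array 1 of Ptger4+/+ cells. The count was 14 without array 1 of the cells labelled Ptger4-/- and 9 without array 2, and 27 and 17 without array 1 and array 2 of Ptger4+/+ cells.

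For some genes the fitted PGE2 ratios of the genotypes lay close together. Mrpl3 had ratios of -0.18 in Ptger4+/+ cells and -0.19 in cells labelled Ptger4-/-, a difference of -0.01 ± 0.07. Mrpl4 was -0.46 ± 0.10 and -0.44 ± 0.10, with a difference of 0.02 ± 0.14, but its arrays in cells labelled Ptger4-/- stood at -0.01 and -0.87. Without array 1 its ratio in those cells was -0.71 and without array 2 it was -0.16, so the nearness of its means rests on averaging unlike arrays. Mrps10 stood at -0.09 in both, with a difference of 0.0048 ± 0.07. None of these 3 differences was called, and their standard errors leave room for small ones. They were chosen after their values were seen.

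**Figure D3:**
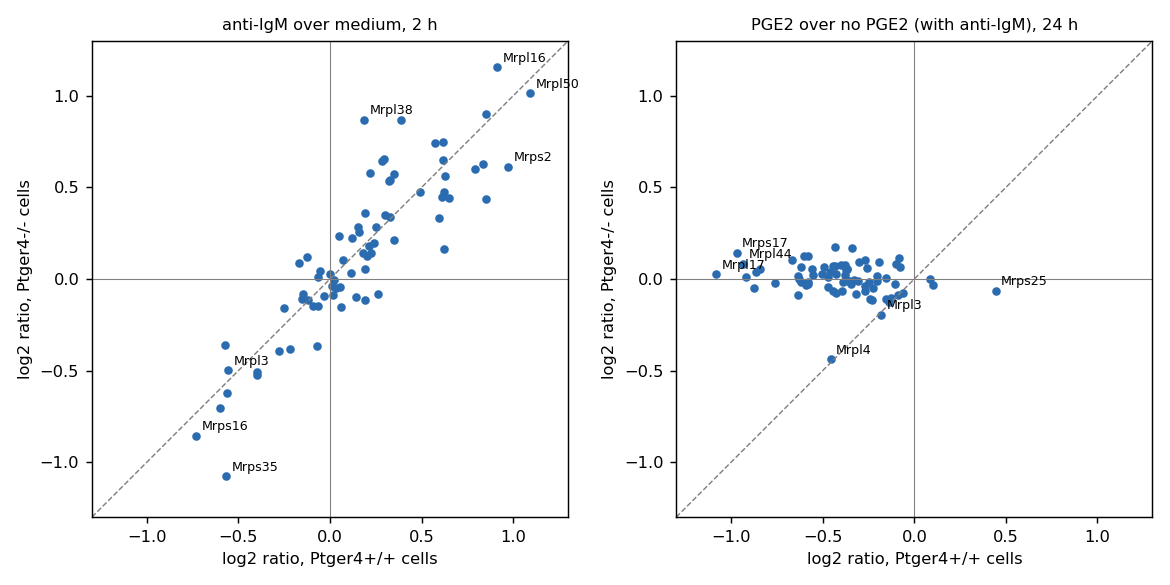
Fitted log2 ratios of the 74 genes in Ptger4+/+ cells (horizontal axis) against cells labelled Ptger4-/- (vertical axis), for anti-IgM over medium at 2 h (left) and PGE2 over no PGE2 at 24 h (right). Each point is a gene and the dashed line marks equal ratios. On the left the points follow the line; on the right they spread from -1.08 to 0.44 along the horizontal axis and stay between -0.44 and 0.17 on the vertical axis.

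With anti-IgM and PGE2 in both genotypes for 24 h, the set stood higher in cells labelled Ptger4-/- than in Ptger4+/+ cells. Limma called 51 of the 74 genes higher and 1 lower, where 15.9% of all features were called higher and 11.0% lower. The median log2 ratio was 0.38, against -0.00091 over all features. It was 0.30 on array 1 and 0.45 on array 2, and both arrays lay above 0 for 62 genes and below 0 for 3. Without array 2 the count of genes called higher was 22. This comparison shares conditions with each PGE2 comparison (PGE2-treated Ptger4+/+ cells with the first, PGE2-treated cells labelled Ptger4-/- with the second), so its values are set beside theirs and not counted as separate support.

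Mrpl17 was highest, with 1.16 on array 1 and 1.56 on array 2. The arrays differed in size but not in direction. The mean of 1.36 ± 0.12 is a level 2.57-fold higher in cells labelled Ptger4-/- (limma adjusted p = 0.000224). Mrpl46 gave 1.43 and 1.21 (mean 1.32 ± 0.10, limma adjusted p = 0.000112), Mrpl37 1.40 and 1.11 (mean 1.26 ± 0.04, limma adjusted p = 8.27e-06), and Mrps17 1.11 and 1.14 (mean 1.12 ± 0.05, limma adjusted p = 2.06e-05). All were also among the 6 genes with the largest falls with PGE2 in Ptger4+/+ cells.

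Mrps22, a small subunit protein whose human counterpart is mutated in a mitochondrial disease of infancy, gave 1.11 and 1.00 (mean 1.06 ± 0.12, limma adjusted p = 0.000926). Mrpl51 of the large subunit gave 1.00 and 1.06 (mean 1.03 ± 0.12, limma adjusted p = 0.000745). With PGE2 in Ptger4+/+ cells these genes had stood at -0.84 ± 0.12 and -0.63 ± 0.12. The calls of the 6 highest genes held when any array was left out.

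Mrps25 was again the exception, at -0.57 on array 1 and -0.17 on array 2, both below 0. Its mean was -0.37 ± 0.07 (limma adjusted p = 0.00862), and without array 1 it was not called. Mrps27 gave -0.13 and -0.17 (mean -0.15 ± 0.05, limma adjusted p = 0.0627) and Mrps21, a small protein of the small subunit with a bacterial relative, -0.25 and 0.06 (mean -0.09 ± 0.05, limma adjusted p = 0.220). Neither was called.

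**Figure D4:**
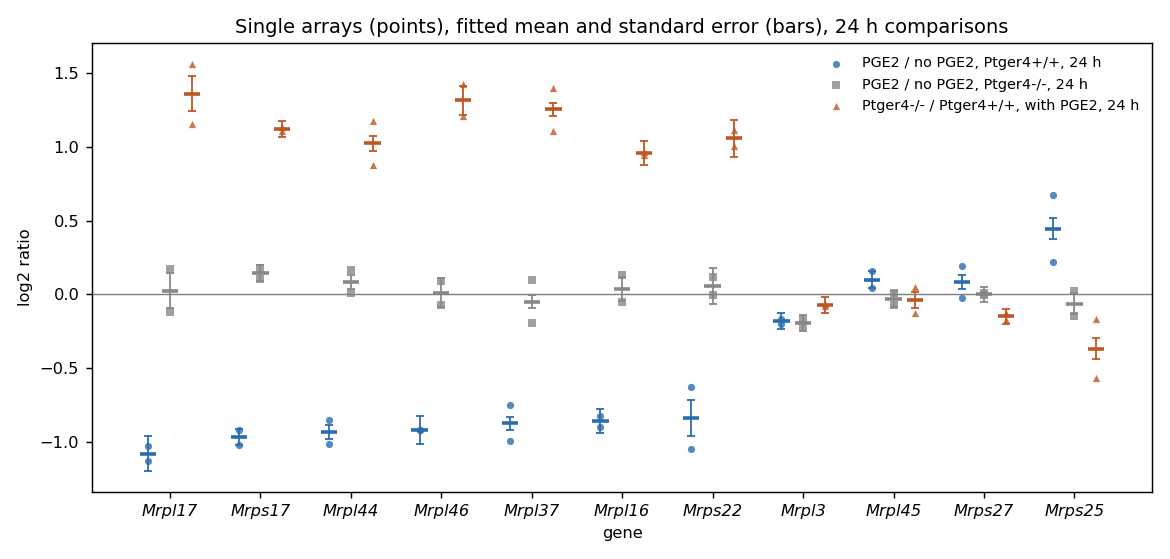
Log2 ratios (vertical axis) of 11 genes (horizontal axis) in the 24 h comparisons. Points are single arrays, short lines are fitted means and error bars are standard errors of the fit over all arrays, with blue circles for PGE2 in Ptger4+/+ cells, grey squares for PGE2 in cells labelled Ptger4-/- and orange triangles for the genotypes with PGE2. From Mrpl17 to Mrps22 the blue points lie below 0 and the orange points above it, and for Mrps25 they change places.

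With anti-IgM alone for 2 h calls went both ways, but only the share called higher stood far above that of all features. In Ptger4+/+ cells limma called 29 of the 74 genes higher (39.2%) and 12 lower (16.2%). Among all features, 9.71% were called higher and 11.4% lower. The median was 0.18, against 0.0047 over all features, and the ratios ranged from -0.73 to 1.09. Both arrays lay above 0 for 42 genes, below 0 for 16 and on opposite sides for 16. Without array 1 the count of genes called higher was 15 and the median 0.03, and without array 2 the count called lower was 6.

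Mrpl50, a large subunit protein without bacterial relatives, led the rises with 1.15 on array 1 and 1.03 on array 2 (mean 1.09 ± 0.08, limma adjusted p = 8.12e-05). This is a level 2.13-fold higher with anti-IgM. Mrps2, a small subunit protein with a bacterial relative, gave 1.00 and 0.95 (mean 0.97 ± 0.08, limma adjusted p = 0.000105). Mrpl16 gave 1.15 and 0.68, Mrpl17 1.02 and 0.69, Mrpl36 1.12 and 0.58, and Mrpl21 0.77 and 0.90. For the first 3 of these 4 genes array 1 was the higher, and all arrays stood well above 0. Their means were 0.91 ± 0.08, 0.85 ± 0.12, 0.85 ± 0.12 and 0.84 ± 0.11 (limma adjusted p = 0.000172 to 0.00179).

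Among the falls, Mrps16, a small subunit protein whose human counterpart is mutated in a mitochondrial disease, gave -0.73 on array 1 and -0.73 on array 2 (mean -0.73 ± 0.07, limma adjusted p = 0.000233). Mrpl49 gave -0.49 and -0.72, Mrpl14 -0.59 and -0.54, and Mrpl3 -0.46 and -0.65. Mrpl14 is the large subunit protein on which the assembly factor Malsu1 docks. Mrpl18 gave -0.48 and -0.67 and Mrps35 -0.53 and -0.60, and these last calls were lost without array 2. The means of these 5 genes lay between -0.60 and -0.56 (limma adjusted p = 0.000226 to 0.01). All arrays of the 6 genes lay below 0.

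Cells labelled Ptger4-/- gave similar counts at 2 h, with 30 genes (40.5%) called higher and 10 (13.5%) lower. Among all features, 11.6% were called higher and 11.7% lower, so the lower share was close to that of all features. The median was 0.14, and the ratios ran from -1.08 to 1.16. Mrpl16 led with 1.34 and 0.97 (mean 1.16 ± 0.08, limma adjusted p = 4.48e-05), followed by Mrpl50 with 1.01 and 1.02 (mean 1.01 ± 0.08, limma adjusted p = 9.48e-05). Mrpl17, Mrpl38, Mrpl46 and Mrpl20 had means of 0.90 ± 0.12, 0.87 ± 0.08, 0.87 ± 0.10 and 0.75 ± 0.10. Each of these 6 genes lay well above 0 on both arrays.

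Mrps35, a small subunit protein without bacterial relatives, was lowest in these cells, at -1.32 and -0.84 (mean -1.08 ± 0.10, limma adjusted p = 0.000161). Mrps16 stood at -0.86 ± 0.07, Mrpl49 at -0.71 ± 0.06, Mrpl14 at -0.62 ± 0.06, Mrpl43 at -0.53 ± 0.05 and Mrpl34 at -0.51 ± 0.05. These 12 genes kept their calls when any array was left out.

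The anti-IgM responses of the genotypes ran alike over the set. Of the 74 genes, 23 were called higher in both, 9 lower in both and 0 in opposite directions. A further 6 were called higher and 3 lower in Ptger4+/+ cells alone, and 7 higher and 1 lower in cells labelled Ptger4-/- alone, which does not show a difference. Over the 74 genes the ratios correlated with r = 0.88 (rho = 0.88), as a description across genes that share arrays and are not independent. For PGE2 the same value was -0.23 (rho = -0.28). Within a genotype, the 2 arrays of a comparison correlated over the genes with r = 0.88 and 0.93 for anti-IgM, 0.63 for PGE2 in Ptger4+/+ cells, -0.21 for PGE2 in cells labelled Ptger4-/- and 0.80 between the genotypes. Joint calls and correlations were not taken over all features, so the likeness of the anti-IgM responses is not shown to be particular to this set.

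The difference of the anti-IgM responses passed for 2 of the 74 genes (2.7%), near the 1.74% of all features that passed in either direction. Mrpl38, of the central protuberance, gave 0.44 and -0.06 in Ptger4+/+ cells and 0.89 and 0.85 in cells labelled Ptger4-/-. These are the arrays that the contrast used, so their lack of overlap is no separate support. The difference was 0.68 ± 0.11 (limma adjusted p = 0.0350). For Mrpl37 the arrays gave 0.30 and 0.13 against 0.68 and 0.49, a difference of 0.36 ± 0.06 (limma adjusted p = 0.0417). The call of Mrpl37 was lost in 10 and that of Mrpl38 in 7 of the 10 fits that left out an array.

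The genes were also grouped by their call at 2 h and counted with PGE2 at 24 h in Ptger4+/+ cells. Of the 29 genes called higher with anti-IgM, 24 were called lower with PGE2, with a median of -0.44. Of the 12 called lower with anti-IgM, 11 were called lower with PGE2, with a median of -0.31. Of the 33 not called at 2 h, 24 were lower and 1 higher, with a median of -0.35. In the whole set 59 of the 74 genes (79.7%) were lower, with a median of -0.38, where 17.0% of all features were lower. The grouping by the call at 2 h was not counted over all features. The comparisons have different arrays and RNAs, and no difference between these classes was tested. Mrpl14, for example, stood at -0.56 ± 0.06 with anti-IgM and at -0.30 ± 0.06 with PGE2, while Mrpl50 stood at 1.09 ± 0.08 and -0.40 ± 0.08.

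Over the 5 comparisons, 22 genes were called in 4, 20 in 3, 20 in 2, 5 in 1 and 7 in none. The same count was not made over all features, so whether it is unusual on these arrays is not known. The 7 never called were Mrpl39, Mrpl45, Mrpl48, Mrps7, Mrps27, Mrps34 and Mrps36. Mrps36, the dehydrogenase subunit named as a ribosomal protein, gave -0.15 ± 0.08 with PGE2 in Ptger4+/+ cells (limma adjusted p = 0.212). Mrps30, a large subunit protein in spite of its name, gave -0.40 ± 0.10 in that comparison (limma adjusted p = 0.0260). In the Mrps18 family, Mrps18a is found in the large subunit, and Mrps18b and Mrps18c belong to the small subunit. With PGE2 in Ptger4+/+ cells, Mrps18a stood at -0.37 ± 0.07, Mrps18c at -0.37 ± 0.08 and Mrps18b at -0.20 ± 0.07 (limma adjusted p = 0.00744, 0.0141 and 0.0607). At 2 h in Ptger4+/+ cells Mrps18b had been called higher (0.79 ± 0.07) and Mrps18c lower (-0.28 ± 0.08).

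Of the 74 genes, 68 had 1 probe and 6 had 2, and the probes of some genes disagreed. For Mrpl47 the mean log2 ratio with PGE2 in Ptger4+/+ cells was -0.09 on one probe and -1.24 on the other. For Mrps5 it was -0.01 and -0.64. For Mrps6 the probes had opposite signs with anti-IgM in Ptger4+/+ cells, at 0.86 and -0.16. The averages given for these 3 genes thus cover unlike probes, and which transcripts each probe sees is not known.

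Other genes of mitochondrial translation were counted in the same fit. With PGE2 in Ptger4+/+ cells, 8 of 12 measured translation factor genes were called lower and 0 higher. Among all features in that comparison, 17.0% were lower and 9.11% higher. Mtif2, the initiation factor, gave -0.53 and -1.03 on the arrays, and Guf1, an elongation factor of the LepA type, -0.67 and -0.76. Both arrays lay far below 0 for each, with means of -0.78 ± 0.07 and -0.72 ± 0.08 (limma adjusted p = 0.000451 and 0.000988). Of 22 genes of ribosome assembly and ribosomal RNA modification, 12 were lower and 0 higher, among them the RNA helicase gene Dhx30 at -0.55 ± 0.05, the granule protein gene Fastkd2 at -0.57 ± 0.05 and the methyltransferase gene Trmt61b at -0.83 ± 0.09.

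Mitochondrial tRNA synthetase genes were lower in 8 of 19 cases and higher in 0, where 17.0% of all features were lower. Hars2 stood at -0.75 ± 0.07 and Lars2 at -0.64 ± 0.05. Genes of mitochondrial DNA maintenance and transcription were lower in 4 of 11 cases and higher in 0, with Lrpprc, which stabilises mitochondrial messages, at -0.71 ± 0.08. Their medians were -0.12 and -0.14, against -0.38 for the ribosomal proteins. Of 3 genes of protein insertion into the inner membrane, 0 were called in either direction, with Oxa1l, the main insertase, at 0.23 ± 0.08 (limma adjusted p = 0.0760) and Cox18 at -0.18 ± 0.08 (limma adjusted p = 0.156). The lists describe the pathway by counts, and no difference between lists was tested.

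Ribosomal proteins of mitochondria with other symbols also moved down where they moved, with 3 of 5 measured called lower and 0 higher. Among all features, 17.0% were called lower and 9.11% higher. Ptcd3 stood at -0.46 ± 0.06, Chchd1 at -0.42 ± 0.06 and Mrpl58, which was measured under an older symbol, at -0.61 ± 0.11. Mrpl57 and Mrpl42, also under older symbols, gave -0.46 ± 0.05 and -0.05 ± 0.07. Of the 72 cytosolic ribosomal protein genes, 27 (37.5%) were called lower and 1 higher, with a median of -0.24. Their arrays differed, with medians of -0.67 and -0.13, and 34 of the 72 genes lay on opposite sides of 0. At 2 h with anti-IgM in Ptger4+/+ cells, 3 of the 72 (4.17%) were called higher and 3 (4.17%) lower, with a median of 0.02. Both shares were below those of all features, 9.71% higher and 11.4% lower.

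**Figure D5:**
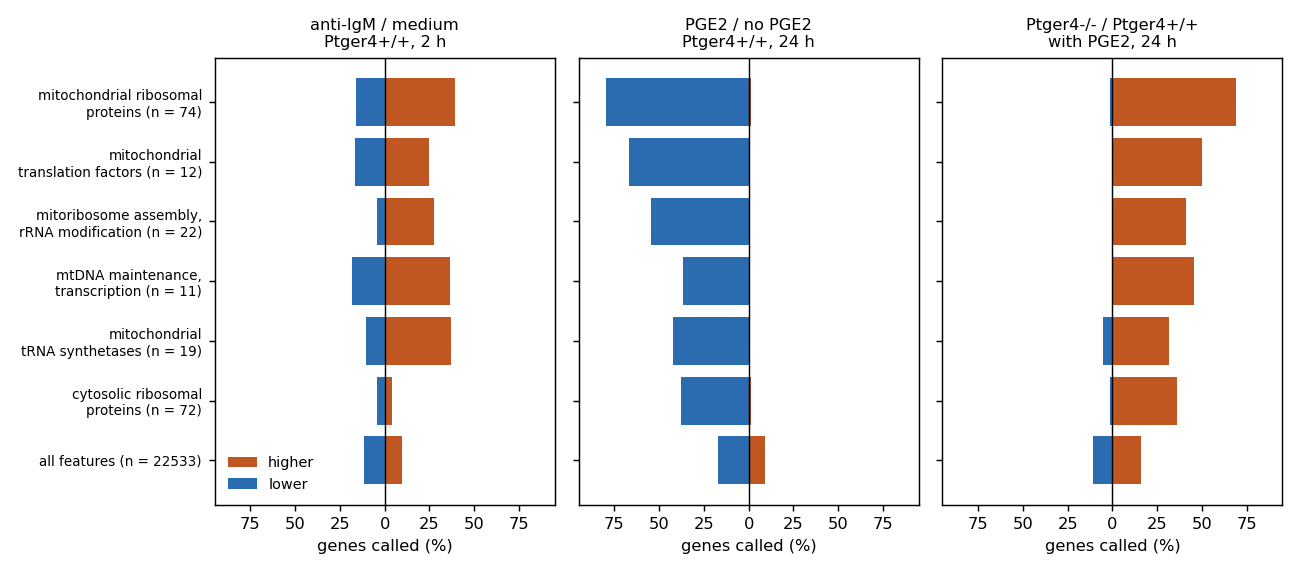
Share of genes called higher (orange, to the right) and lower (blue, to the left), in percent, for the mitochondrial ribosomal proteins, 5 other gene lists and all features, in 3 comparisons. The mitochondrial ribosomal proteins were called lower in 79.7% of cases with PGE2 in Ptger4+/+ cells and higher in 68.9% between the genotypes with PGE2, where all features gave 17.0% and 15.9%.

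Among 9 regulators of nuclear genes for mitochondria, 4 were lower and 0 higher with PGE2 in Ptger4+/+ cells. Of all features, 17.0% were lower and 9.11% higher. Gabpa, a subunit of the GA-binding protein, gave -0.65 and -0.79 (mean -0.72 ± 0.06, limma adjusted p = 0.000342), and Myc gave -0.67 and -0.48 (mean -0.57 ± 0.04, limma adjusted p = 0.000182). Both arrays were below 0 for each of them. Nrf1, which encodes the factor that the NRF1-type motif is named for, stood at -0.05 ± 0.07 and was not called (limma adjusted p = 0.671). With anti-IgM at 2 h in Ptger4+/+ cells, 5 of the 9 were higher and 0 lower, where 9.71% of all features were higher and 11.4% lower. Myc stood at 2.60 ± 0.04, the coactivator gene Pprc1 at 1.34 ± 0.12 and Gabpa at 0.39 ± 0.06.

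These lists were also counted in other comparisons. With PGE2 in cells labelled Ptger4-/-, limma called 0 genes of these lists in either direction. An unadjusted p under 0.05 was found for 6 of the 72 cytosolic ribosomal protein genes and 3 synthetase genes. It was found for 1 assembly and modification gene and 0 translation factor genes. Of all 22533 features, 1880 had such a p. Between the genotypes with PGE2, 6 of 12 translation factor genes, 9 of 22 assembly and modification genes, 5 of 11 DNA maintenance and transcription genes and 6 of 19 synthetase genes were higher, with 1 synthetase gene lower, where 15.9% of all features were higher and 11.0% lower. Of the 5 mitochondrial ribosomal proteins with other symbols, 3 were higher and 1 lower. The lower one, Gadd45gip1, gave -0.67 and 0.04 on the arrays (mean -0.31 ± 0.07, limma adjusted p = 0.0168), which lie on opposite sides of 0. Cytosolic ribosomal protein genes were higher in 26 of 72 cases and lower in 1, with a median of 0.19. For the difference of the PGE2 responses, 21 of the 72 cytosolic genes passed with the response higher in cells labelled Ptger4-/- and 1 with it lower. Of all features, 9.33% passed with it higher and 3.33% with it lower. The median difference of the 72 genes was 0.41, beside 0.40 for the mitochondrial set. The medians behind it were 0.10 with PGE2 in cells labelled Ptger4-/- and -0.24 in Ptger4+/+ cells. For the mitochondrial set these were 0.0031 and -0.38. In cells labelled Ptger4-/-, 58 of the 72 fitted cytosolic ratios were above 0. Only 19 of these genes lay above 0 on both arrays. Of the 72, 50 lay on opposite sides of 0, as did 14085 of all 22533 features. At 2 h in Ptger4+/+ cells, 7 of the 19 synthetase genes were higher and 2 lower, where 9.71% of all features were higher and 11.4% lower. The tryptophanyl-tRNA synthetase gene Wars2 stood at 1.14 ± 0.09 (limma adjusted p = 0.000103). Of the 22 assembly and modification genes, 6 were higher and 1 lower, with Fastkd2 at 0.78 ± 0.05 (limma adjusted p = 3.29e-05).

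Markers of other cell types were called at shares to be read against those of all features. Of 29 markers in 7 lists (platelets, red cells, dendritic cells, neutrophils, macrophages with monocytes, NK cells and T cells), 3 were called higher and 0 lower with PGE2 in Ptger4+/+ cells, where 9.11% and 17.0% of all features were called, with log2 ratios between -0.15 and 0.69. The highest was Adgre1, a macrophage marker. In the comparison of genotypes 2 were higher and 2 lower, between -0.83 and 0.40. Of 8 B cell markers, 3 were called higher with PGE2 in Ptger4+/+ cells (Cd79a at 0.92, Cd22 at 0.79 and Cd79b at 0.33) and 5 were not called, 3 of them with ratios below 0, down to -0.26 for Ms4a1. The median of the 8 was 0.15. Between the genotypes 3 were lower in cells labelled Ptger4-/- and 5 were not called, with a median of -0.10. With PGE2 in cells labelled Ptger4-/-, Cd79a was lower at -0.81. At 2 h, 4 of the 29 other markers were higher and 1 lower in Ptger4+/+ cells, where 9.71% and 11.4% of all features were called, and 3 and 2 in cells labelled Ptger4-/-. The part of these markers in the results was not tested.

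The 74 genes lie on 17 chromosomes, with 10 on chromosome 11 and 8 on chromosome 17, so they do not sit in a block. Of the 65 with a promoter in the table, 23 (35.4%) start head to head with another protein-coding gene on the opposite strand within 1000 bases, against 8.66% of 17491 protein-coding genes. Mrpl46 and Mrps11 form such a pair, with starts 42 bases apart, so the window printed for Mrpl46 also holds the start of Mrps11. With PGE2 in Ptger4+/+ cells Mrpl46 stood at -0.92 ± 0.10 and Mrps11 at -0.27 ± 0.06. At 2 h in cells labelled Ptger4-/- they stood at 0.87 ± 0.10 and -0.11 ± 0.06, so only Mrpl46 was called there.

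Partners outside the set were counted with PGE2 in Ptger4+/+ cells. Of 21 measured partner genes, 5 were called lower, 2 higher and 14 neither way, with a median of -0.10, where 17.0% of all features were called lower and 9.11% higher. Ighmbp2, which starts 32 bases from Mrpl21, was higher at 0.48 ± 0.04, while Mrpl21 was lower at -0.58 ± 0.11 (limma adjusted p = 0.000343 and 0.00767). Psma2, a proteasome gene that starts 205 bases from Mrpl32, was lower at -1.25 ± 0.16, beside Mrpl32 at -0.62 ± 0.08. At 2 h in Ptger4+/+ cells, Tcp1, a chaperonin gene starting 238 bases from Mrpl18, was higher at 0.72 ± 0.05, while Mrpl18 was lower at -0.57 ± 0.11. Genes that share a promoter region thus differed in direction in the first and the last of these pairs. These examples were chosen after their values were seen.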

How the data were processed

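Total RNA was amplified and hybridised to 10 two-colour oligonucleotide arrays, 2 for each of 5 comparisons with the dyes exchanged, per the labels. The values are log2 ratios that the authors deposited already normalized. Neither the labels nor the file state their log base, direction or normalization method. Base 2 and Cy5 over Cy3 were assumed, and natural logarithms would only rescale the ratios.

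Each ratio was turned by its dye labels so that the treated cells, or the cells labelled Ptger4-/-, were on top. Probes of a gene were averaged. Older symbols were updated through RefSeq, and of 25344 probes 21111 had a symbol (17069 current, 3974 updated and 68 kept). The 22533 features (genes, and probes without a symbol) were fitted together over all 10 arrays with limma 3.58.1 in R 4.3.3 (lmFit and eBayes), with a term for the dye. The fit had 4 residual and 3.13 prior degrees of freedom. P-values were adjusted by the Benjamini-Hochberg method over all features, with a limit of 0.05. Differences between the genotypes' responses were contrasts of the same fit. The fit was tested on simulated data with independent noise on each array, which cannot cover arrays that share RNA. Tables and plots used Python 3.11.15, pandas 2.3.3 and matplotlib 3.10.9.

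For each comparison, genes called with the same sign on both arrays were ranked by size, and the text names the top 6 in each direction. Where fewer than 3 were called in a direction, it gives the 3 largest values. It also names genes called in a difference of responses, genes with disagreeing probes, genes with a known place in the ribosome, and up to 3 genes of each other list by smallest p. The members and lists were chosen with earlier results of these data known. The alternatives were no dye term, centring, scaling, fitting only the arrays compared, a limit of 0.01, genes with current symbols and leaving out each array.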

Additional observations from a re-analysis of the deposited data

Results flagged for a closer look

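The results given here are those for which the response in cells labelled Ptger4-/- differed from the response in Ptger4+/+ cells by limma's test of the difference itself, with adjusted p-values from 0.000506 for Mrps17 to 0.0490 for Mrps16. Each value is the log2 response in cells labelled Ptger4-/- minus that in Ptger4+/+ cells, from 2 arrays per genotype, and no explanation was weighed.

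For PGE2 at 24 h, the difference in the large subunit was 1.11 for Mrpl17, 1.02 for Mrpl44, 0.93 for Mrpl46, 0.90 for Mrpl16, 0.82 for Mrpl37, 0.77 for Mrpl47 (an average of unlike probes) and 0.73 for Mrpl18. It was 0.69 for Mrpl27, 0.63 for Mrpl51, 0.61 for Mrpl35, 0.60 for Mrpl32, 0.56 for Mrpl30, 0.56 for Mrpl20, 0.55 for Mrpl2, 0.55 for Mrpl52 and 0.51 for Mrpl19. Smaller differences were 0.49 for Mrpl11, 0.48 for Mrpl50, 0.45 for Mrpl55, 0.42 for Mrpl43, 0.42 for Mrps18a (a large subunit protein), 0.40 for Mrpl14, 0.40 for Mrpl9, 0.38 for Mrpl28, 0.35 for Mrpl40, 0.35 for Mrpl49, 0.32 for Mrpl1, 0.30 for Mrpl22 and 0.29 for Mrpl34.

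In the small subunit it was 1.11 for Mrps17, 0.90 for Mrps22, 0.74 for Mrps15, 0.71 for Mrps31, 0.65 for Mrps14, 0.61 for Mrps33 and 0.58 for Mrps6, and 0.48 for Mrps24, 0.46 for Mrps28, 0.43 for Mrps2 and 0.37 for Mrps16. For Mrps25 it was -0.51, the only one of the 41 differences below 0.

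Of these 41 calls, 9 were kept in all 10 fits that left out an array. For 3 genes the value moved by over 1.5 times. Without array 2 of PGE2 in Ptger4+/+ cells the difference was 0.47 for Mrpl18 and 0.28 for Mrpl50, and without array 1 it was 0.32 for Mrps24. Their calls were lost in 5, 7 and 5 of the 10 fits.

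For anti-IgM at 2 h, the difference was 0.68 for Mrpl38 and 0.36 for Mrpl37.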

How the results depend on the processing

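Centring each array changed no call of a named gene and moved the counts of calls by at most 3, and all 74 symbols were current, so that alternative is the same list. The median ratios kept their sign in all 5 comparisons under every alternative run. Counts of calls moved more, and where no construction below shows the cause, the cause was not tested.

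With only the arrays compared (fewer arrays), 18 genes were called higher with anti-IgM in Ptger4+/+ cells. With PGE2 there, 0 were higher and 11 lower, and between the genotypes 26 were higher and 0 lower. The differences of responses counted 0 for anti-IgM and 1 for PGE2. Calls fell over all features too. With anti-IgM in Ptger4+/+ cells, 1530 features were higher, against 2188 in the reported fit. With PGE2 there, 774 were lower, against 3835, and 56 higher, against 2053. Between the genotypes, 1379 were higher, against 3593, and 164 lower, against 2476. Without the dye term, PGE2 in Ptger4+/+ cells gave 0 higher and 37 lower, the genotypes 0 lower, and the differences 0 and 17. Over all features, that fit gave 577 higher and 2329 lower with PGE2 in Ptger4+/+ cells. Between the genotypes it gave 619 lower. With arrays scaled the differences counted 0 and 25. With a limit of 0.01, which is stricter by construction, 7 genes were lower with anti-IgM and 38 with PGE2 in Ptger4+/+ cells, and the differences counted 0 and 13.

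Each array was left out in turn, and the single array then remaining was taken to have the spread of the other comparisons. In Ptger4+/+ cells, anti-IgM gave 15 to 29 genes higher and 6 to 12 lower, with medians from 0.031 to 0.25. In cells labelled Ptger4-/- it gave 22 to 32 and 8 to 11, with medians from 0.089 to 0.15. PGE2 in Ptger4+/+ cells gave 0 to 1 higher and 24 to 60 lower, with medians from -0.41 to -0.34. In cells labelled Ptger4-/- it gave 0 higher and 0 to 1 lower, with medians from 0.0013 to 0.025. Between the genotypes, 22 to 54 were higher and 0 to 2 lower, with medians from 0.33 to 0.46. The differences counted 0 to 3 for anti-IgM and 9 to 45 for PGE2. The lowest counts came mostly without an array of the comparison itself. Counts over all features are not given for these fits, nor for the differences under any alternative. Whether those losses of calls were particular to this set was therefore not tested. Calls kept in all 10 of these fits numbered 20 of 41 and 27 of 40 for anti-IgM, 20 of 60 for PGE2 in Ptger4+/+ cells, 22 of 52 between the genotypes, and 0 of 2 and 9 of 41 for the differences. The uncalled ratio of Mrps27 with PGE2 in Ptger4+/+ cells, 0.08, was 0.17 without array 1 and -0.0019 without array 2.

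No paired analysis was possible because the labels give the arrays no replicate numbers, so the numbers here only name arrays. Signal over background could not be assessed from ratios.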
